A study of Rattus norvegicus with 12 samples.

Results

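Bone morphogenetic proteins (BMPs) are secreted ligands of the TGF-beta superfamily. They bind pairs of type I and type II receptor kinases, which activate Smad transcription factors, and the Id genes are among the best known genes that these Smads switch on. Id proteins hold back basic helix-loop-helix transcription factors. Activins use the same kind of receptor through other Smads, and secreted antagonists bind the ligands before they reach a receptor. In skeletal tissue BMPs are known for driving cartilage and bone formation, and disc cells respond to them by making matrix.

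The genes described here are 10 genes of this system, chosen by name: the ligand genes Bmp2 and Bmp4, the activin subunit gene Inhba, the antagonist genes Grem1 (gremlin 1) and Fst (follistatin), the receptor genes Bmpr1a and Bmpr2, and Id1, Id2 and Id3. All 10 were among the 12899 genes that the 3 deposited tables share, and all 10 passed the filter on low values in each comparison. They were measured by RNA-seq in cells labelled as nucleus pulposus cells of Wistar rats, expanded from explants of the core of the intervertebral disc. Every culture received a lentivirus, carrying either the control shRNA (PLKO) or an shRNA against TonEBP (shTon), the osmotic stress factor encoded by Nfat5. Cultures were then left untreated (CTR) or given TNF-a at 50 ng/mL for 24 h (TNF). The groups are PLKO_CTR, PLKO_TNF, shTon_CTR and shTon_TNF, with 3 libraries each, numbered as sets 1 to 3 in the titles. The labels do not say what a set is, nor the age of the animals, so the p-values cover only how far these libraries scatter, which may be technical.

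Libraries held 7160042 to 18645538 reads on listed genes. Sets differed in cell content: the summed level of 10 skeletal muscle markers was 41542 to 94214 normalised reads in set 1, 15933 to 29019 in set 2 and 171 to 256 in set 3, where Myog, Tnni2 and Tnnc2 were at 0 in all 4 libraries. Of 10 nucleus pulposus and notochord markers 6 were among the shared genes, at a summed 3417 to 16497 reads, and T, Krt18, Krt19 and Foxa2 were not. The upper end was mostly Car3 (13348 in shTon_CTR of set 1). Car3 was at 8729, 4048 and 45.8 in sets 1, 2 and 3 of PLKO_CTR, the set order of the muscle markers. Krt8 was instead highest in set 3 (209, 122 and 2278). Of 6 cartilage markers Hapln1 and Comp were among the shared genes, at a summed 77.8 to 619 reads, and Acan, Col2a1, Sox9 and Col9a1 were not. Fibroblast markers (6 of 6) summed to 21843 to 167702 reads over the 12 libraries. Only Cd14 and Cd68 of 8 leukocyte markers and Tek of 5 endothelial markers were among the shared genes. The levels are of whole cultures, in which fewer cells of a type and less RNA per cell cannot be told apart. Nfat5 was at 685, 1363 and 1818 normalised reads in sets 1, 2 and 3 of PLKO_CTR and at 458, 457 and 288 in shTon_CTR (log2 fold change -1.61, adjusted p = 0.0963 in limma). The value in the authors' deposited table is -1.19, at an adjusted p of 4.57e-05. Under TNF-a the knockdown value of Nfat5 was -0.26 (adjusted p = 0.799 in limma). Nfat5 was at 642, 1092 and 483 in PLKO_TNF and at 1695, 499.7 and 232 in shTon_TNF, so the library labelled shTon_TNF of set 1 goes against its label. Directions of knockdown under TNF-a, and of TNF-a in shTon cells, rest on that label. So does the interaction, the difference between the TNF-a effects in shTon and PLKO cells.

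RefSeq lists a promoter for 8 of the 10 genes (build GRCr8), of which 3 are shown. They are the promoter of Inhba, which rose with TNF-a, of Id1, which fell in PLKO cells, and of Grem1, the BMP antagonist, which was not called in any comparison. Of the 8 promoters only those of Inhba and Grem1 held TGGAAA or GGCGCC. Capitals mark the core of the TonEBP element (TGGAAA) in Inhba and the core of the BMP-responsive element (GGCGCC) in Grem1. Id1 held neither in the window searched. Each is printed 5′ to 3′ on the strand of its gene from 250 bases before the listed transcript start. The Inhba window lies inside the listed span of its gene, and the Id1 window is shown only as far as that span, over 211 bases.
Inhba, chr17:53804509-53804758, minus strand: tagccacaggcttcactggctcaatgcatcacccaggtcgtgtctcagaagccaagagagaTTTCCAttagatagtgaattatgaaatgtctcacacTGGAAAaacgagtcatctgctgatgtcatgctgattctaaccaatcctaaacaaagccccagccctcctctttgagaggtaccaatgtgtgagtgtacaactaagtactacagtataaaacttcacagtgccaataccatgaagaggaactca
Id1, chr3:161671314-161671524, plus strand: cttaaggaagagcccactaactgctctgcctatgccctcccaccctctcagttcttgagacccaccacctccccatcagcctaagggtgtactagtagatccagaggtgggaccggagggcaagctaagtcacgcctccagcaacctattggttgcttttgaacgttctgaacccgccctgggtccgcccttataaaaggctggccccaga
Grem1, chr3:120978320-120978569, minus strand: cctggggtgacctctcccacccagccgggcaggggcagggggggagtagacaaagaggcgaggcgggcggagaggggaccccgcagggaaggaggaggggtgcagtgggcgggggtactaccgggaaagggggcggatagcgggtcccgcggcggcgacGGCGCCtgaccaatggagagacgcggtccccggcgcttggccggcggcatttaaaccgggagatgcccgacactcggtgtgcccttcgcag

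Motifs were searched on both strands in the 250 bases before the start, in 33469 RefSeq promoters. TGGAAA occurred in 1 of the 8 members' promoters (Inhba, at 2 places) and in 19.7% of all promoters. GGCGCC occurred in 1 of 8 (Grem1, at 91 to 86 bases before the start) and in 8.69% of all. The Grem1 window was 72.0% G and C, against a median of 51.2% over all promoters. The Smad-binding letters GTCT were in 6 of 8 and in 84.0% of all. The longer GTCTAGAC, which contains GTCT, was in 0 of 8 and 0.173% of all. The NF-kB site was in 0 of 8 and in 6.33% of all. These matches describe letters in a short window and are not measured binding.

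With TNF-a the ligand genes Inhba and Bmp2 and the antagonist gene Fst rose in PLKO cells, and Id1 fell. Of the 10 genes 3 rose and 1 fell at an adjusted p under 0.05, where 9.62% of all 12373 genes were called. Their median log2 fold change was -0.29, against -0.01 over all genes tested. Fold changes are on the scale of log2(normalised reads + 1), in limma with the set as a block, with p-values adjusted over all genes. Levels are normalised reads on 1 scale for the 12 libraries, in the order of sets 1, 2 and 3.

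**Figure D1:**
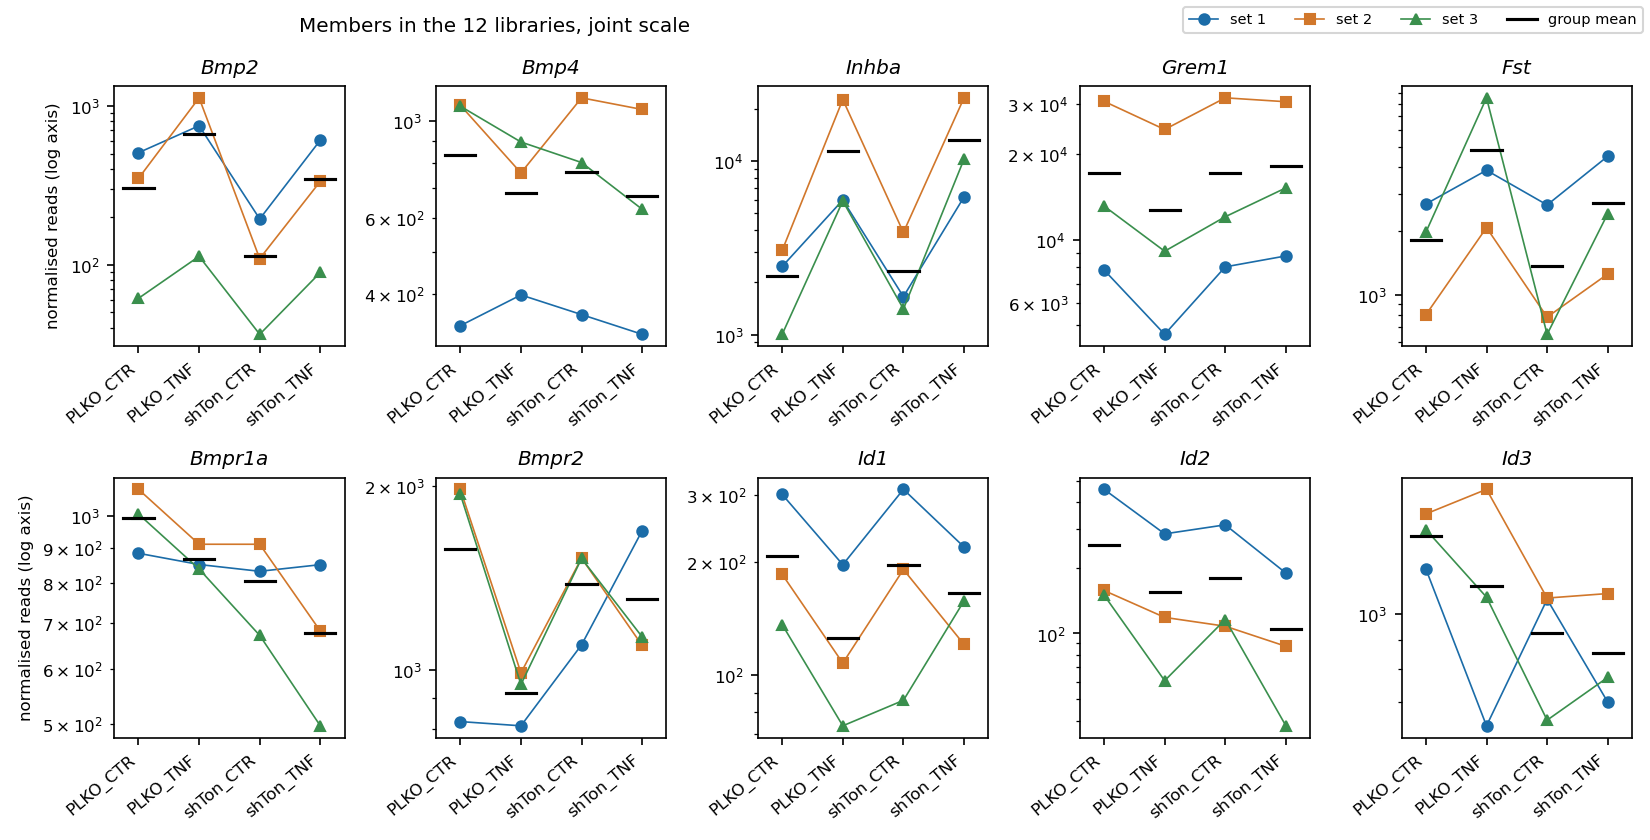
Normalised reads (log axis) of the 10 genes in the 12 libraries, 1 panel a gene, with the 4 groups on the horizontal axis, a coloured line for each set and a black bar for each group mean. Inhba stood higher in every TNF-a library than in every untreated one, while set 2 was highest for Grem1 in each group and set 3 lowest for Bmp2.

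Inhba encodes the subunit that forms activin A. Its level was 2472, 3059 and 1003 in PLKO_CTR and 5980.45, 22735 and 5902 in PLKO_TNF. In shTon cells it was 1655, 3886 and 1404 without TNF-a and 6229, 23267 and 10294 with it. All 6 TNF-a libraries lay above all 6 untreated ones, and set 2 was the highest in each group. The log2 fold change with TNF-a was 2.24 in PLKO cells (SE 0.28, adjusted p = 0.00919), a 4.73-fold rise, and 2.46 in shTon cells (SE 0.19, adjusted p = 0.00185), a 5.48-fold rise. The difference between these effects was 0.21 (95% interval -0.76 to 1.19). Knockdown gave 0.08 in untreated cells (adjusted p = 0.879) and 0.30 under TNF-a (adjusted p = 0.527).

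Bmp2 encodes a ligand with strong bone- and cartilage-forming activity. It stood at 507, 349 and 61.4 normalised reads in PLKO_CTR and at 749, 1123 and 113 in PLKO_TNF. In shTon_CTR it was 194, 109 and 36.4, and in shTon_TNF 608, 335 and 89.3. Set 3 was the lowest in every group, so the groups overlapped while each set moved the same way. The rise with TNF-a was 1.04 on the log2 scale in PLKO cells (SE 0.21, adjusted p = 0.0314) and 1.51 in shTon cells (SE 0.17, adjusted p = 0.00719), in 3 of 3 sets each. In PLKO cells the call rested on set 2, without which the value was 0.72 (adjusted p = 0.0803).

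With the TonEBP shRNA Bmp2 was lower by value in 3 of 3 sets, both without TNF-a (log2 fold change -1.27, SE 0.22, adjusted p = 0.0850) and with it (-0.79, SE 0.29, adjusted p = 0.232). Neither passed. The authors' deposited table gives untreated cells -1.06 at an adjusted p of 0.000158, and DESeq2 with the set as a block gave -1.34 (adjusted p = 0.000207). Without set 3, limma gave -1.53 (adjusted p = 0.000344). Mean Bmp2 was highest in PLKO_TNF (662 ± 511), followed by shTon_TNF (344 ± 259.6), PLKO_CTR (306 ± 226) and shTon_CTR (113 ± 78.9; SD, n = 3), and every neighbouring pair in this order overlapped.

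Bmp4, a close relative of Bmp2, was not called in any comparison. Its levels were 338, 1088 and 1082 in PLKO_CTR, 398, 760 and 895 in PLKO_TNF, 359, 1131 and 803 in shTon_CTR, and 323, 1063 and 627 in shTon_TNF. Set 1 was the lowest in each group, the reverse of Bmp2, for which set 3 was. Its 4 pairwise log2 fold changes lay between -0.20 and -0.10, and the 95% interval for TNF-a in PLKO cells was -0.55 to 0.17.

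Fst encodes follistatin, which binds activins tightly and some BMPs. It was measured at 2685, 803 and 1974 normalised reads in PLKO_CTR and 3876, 2076 and 8533 in PLKO_TNF. The shTon_CTR libraries held 2657, 783 and 649, and the shTon_TNF libraries 4517, 1253 and 2416. It was higher with TNF-a in all 6 within-set pairs, although the groups overlapped. The change was 1.34 in PLKO cells (SE 0.26, adjusted p = 0.0285) and 1.11 in shTon cells (SE 0.24, adjusted p = 0.0573), where it did not pass with all sets but did without any one of them (adjusted p = 3.54e-05, 0.00366 and 0.0385 without sets 1, 2 and 3). Inhba and Fst, a ligand gene and the gene of its antagonist, were thus both higher with TNF-a in each set. Under TNF-a the knockdown value of Fst was -0.77 (SE 0.33, adjusted p = 0.290). By set the log2 ratios were 0.23, -0.72 and -1.82. Without set 1, whose shTon_TNF library goes against its label, the knockdown value was -1.27 (adjusted p = 0.00856), with the larger part from set 3. In untreated cells the ratios were -0.02, -0.04 and -1.60, so set 3 stood apart there (-0.56, SE 0.29, adjusted p = 0.379).

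Grem1 encodes gremlin 1, which binds BMP2 and BMP4. It was at 7836, 30673 and 13144 normalised reads in PLKO_CTR and 4654, 24423 and 9118 in PLKO_TNF. With the TonEBP shRNA it was at 8034, 31556 and 12054 without TNF-a and 8778, 30574 and 15227 with it. Set 2 held the most and set 1 the least in each group, so the groups overlapped, and within each set the PLKO_TNF library was the lowest of the 4. TNF-a gave -0.54 in PLKO cells (SE 0.14, adjusted p = 0.0552), just short of the threshold. The value in the authors' deposited table is -0.50, at an adjusted p of 0.00733. It passed without set 2 (-0.64, adjusted p = 0.0458). In shTon cells the value was 0.14 (SE 0.15, adjusted p = 0.669).

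Knockdown gave Grem1 a log2 fold change of -0.02 in untreated cells (SE 0.15, adjusted p = 0.961) and 0.66 under TNF-a (SE 0.21, adjusted p = 0.188), higher in 3 of 3 sets. By set the ratios under TNF-a were 0.93, 0.33 and 0.74, the largest in set 1, whose shTon_TNF library goes against its label. With all 12 libraries in the fit the value under TNF-a was 0.66 (adjusted p = 0.0429). These 2 knockdown values share no samples, but each shares libraries with a TNF-a comparison. The interaction was 0.68 (SE 0.21, 95% interval 0.20 to 1.15, unadjusted p = 0.00934, adjusted p = 0.999), positive in 3 of 3 sets (0.88, 0.28 and 0.86). It failed the correction, as did every one of the 12310 genes tested for the interaction (0.0% called, 219 at an unadjusted p under 0.05 in limma, 248 in edgeR and 271 in DESeq2).

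**Figure D2:**
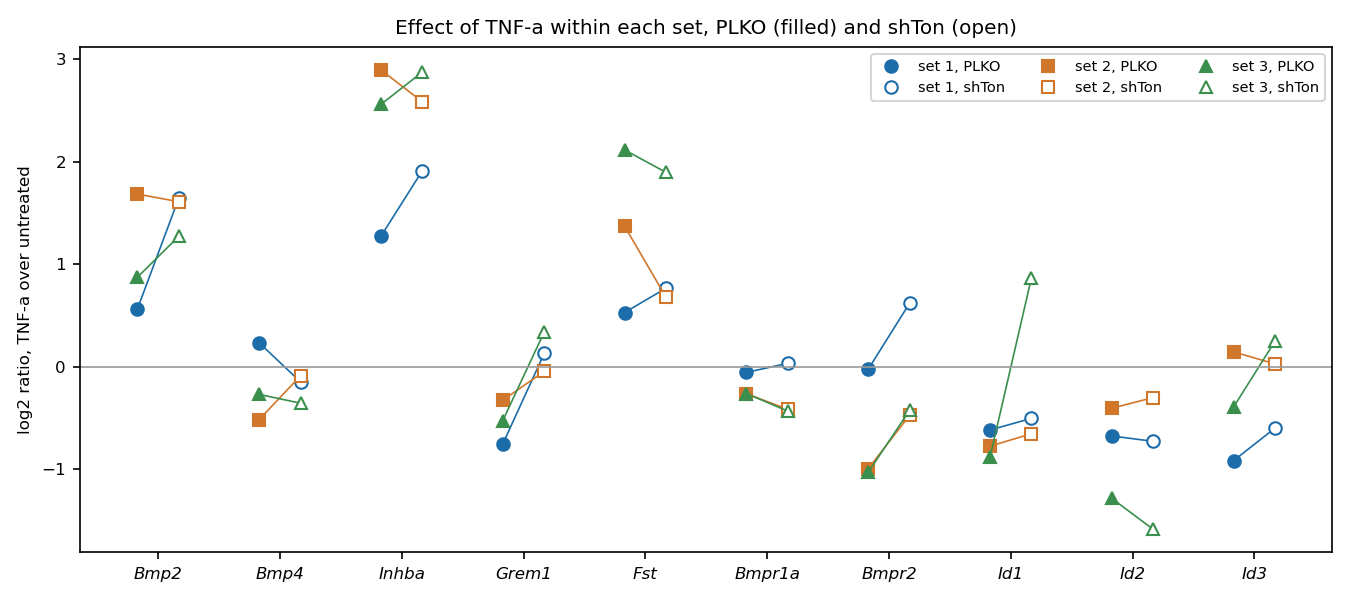
Log2 ratio of TNF-a over untreated (vertical axis) within each set for the 10 genes, filled in PLKO cells and open in shTon cells, with a line joining the same set. The 3 PLKO points of Grem1 lie at -0.75, -0.33 and -0.53 and the shTon points at 0.13, -0.05 and 0.34, while Inhba, Bmp2 and Fst lie above 0 in all 6 pairs.

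Neither receptor gene was called in any comparison. Bmpr2, the type II BMP receptor gene, was at 824, 1973 and 1937 normalised reads in PLKO_CTR and 811, 989 and 947 in PLKO_TNF. Its levels were 1099, 1523 and 1521 in shTon_CTR and 1689, 1097 and 1133 in shTon_TNF. Sets 2 and 3 were lower with TNF-a in PLKO cells, and set 1 was nearly level (within-set log2 ratios of about -1 for sets 2 and 3 and -0.03 for set 1). The log2 fold change was -0.68 (SE 0.20, adjusted p = 0.0758). Leaving out set 1 gave -1.01 (adjusted p = 0.00889). In the authors' deposited table it is -0.62, at an adjusted p of 0.0145. Under TNF-a all 3 shTon libraries lay above all 3 PLKO libraries, and the knockdown value was 0.49 (SE 0.21, adjusted p = 0.282). By set the log2 ratios were 1.07, 0.15 and 0.25. The largest came from set 1, whose shTon_TNF library goes against its label.

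Bmpr1a encodes a type I BMP receptor. It varied the least within sets after Bmp4, with group means of 995 ± 106, 866 ± 38.6, 805 ± 122 and 676 ± 177 in PLKO_CTR, PLKO_TNF, shTon_CTR and shTon_TNF (SD, n = 3). The 4 libraries of set 1 lay between 832 and 883. The 4 pairwise log2 fold changes were between -0.39 and -0.19, and none passed (adjusted p 0.243 to 0.364).

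The Id genes are common readouts of BMP signalling. Id1 was at 301, 185 and 136 normalised reads in PLKO_CTR and 196, 108 and 73.5 in PLKO_TNF, lower in 3 of 3 sets although the groups overlapped. It fell by 0.76 on the log2 scale (SE 0.15, adjusted p = 0.0271), to 0.591 of its untreated level. The call was lost without set 2 (adjusted p = 0.0932). In shTon_CTR it was at 311, 191 and 85.9 and in shTon_TNF at 219, 121 and 157, so that sets 1 and 2 were lower with TNF-a and set 3 was higher. The value in shTon cells was -0.10 (SE 0.30, adjusted p = 0.899), and the interaction was 0.66 (95% interval -0.13 to 1.45). By set the interaction was 0.11, 0.12 and 1.75, so its size rested on set 3. Set 1 held the most Id1 in each group.

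Id2 followed Id1 by direction in PLKO cells, with 456, 157 and 150 in PLKO_CTR and 285, 118 and 60.9 in PLKO_TNF. The log2 fold change was -0.79 (SE 0.19, adjusted p = 0.0502), just over the threshold, and -0.66 in the authors' deposited table, at an adjusted p of 0.0201. In shTon cells Id2 went from 314, 108 and 116 to 189, 87.4 and 37.9, lower in 3 of 3 sets (-0.87, SE 0.26, adjusted p = 0.136). This fall passed with set 1 or set 2 left out, but not with set 3 left out. Id2 was also lower with knockdown in 3 of 3 sets, both in untreated cells (-0.49, adjusted p = 0.183) and under TNF-a (-0.56, adjusted p = 0.256). Neither of these values passed.

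Id3 differed from both. Its levels were 1199, 1499 and 1406 in PLKO_CTR, 636, 1655 and 1070.1 in PLKO_TNF, 1061, 1066 and 651 in shTon_CTR, and 700 (699.9), 1086 and 774 in shTon_TNF. With TNF-a in PLKO cells set 2 was slightly higher and sets 1 and 3 were lower (-0.39, SE 0.19, adjusted p = 0.222). All 3 shTon_CTR libraries lay below all 3 PLKO_CTR libraries, with a log2 fold change of -0.60 (SE 0.18, adjusted p = 0.172) that did not pass.

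**Figure D3:**
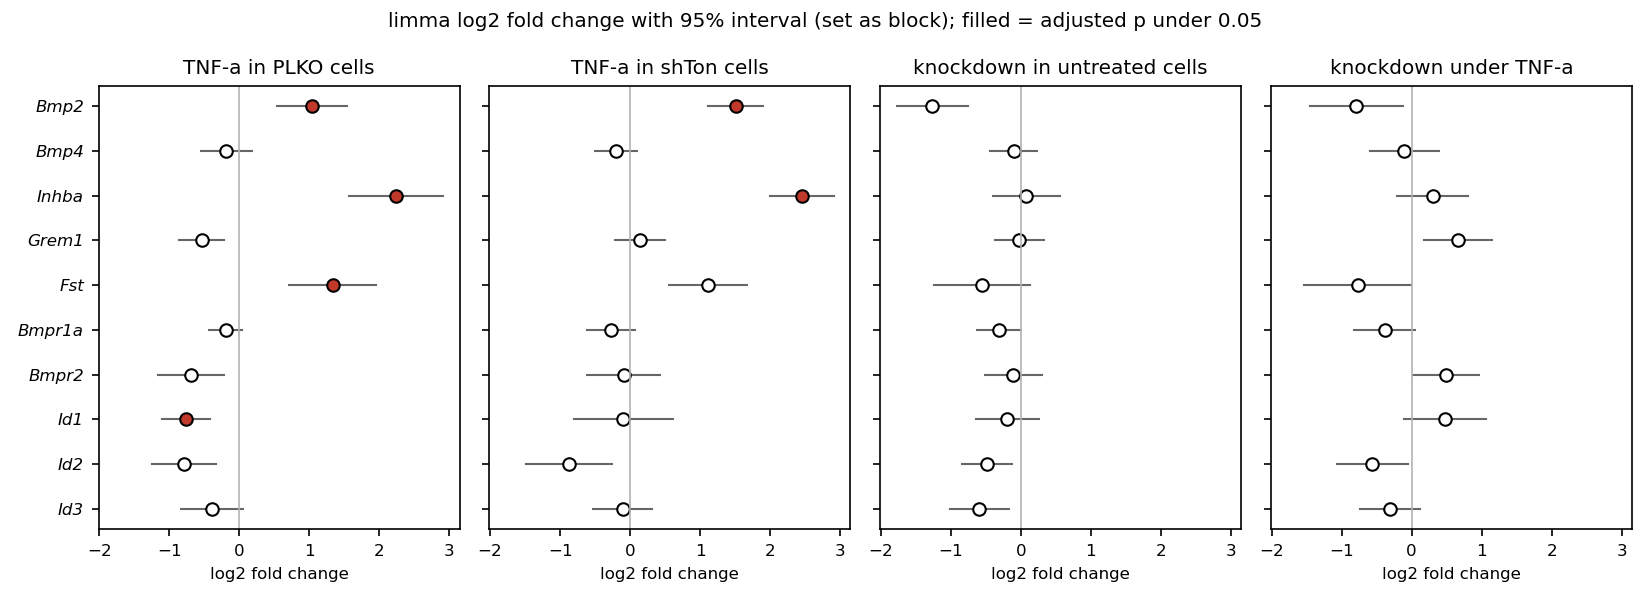
Limma log2 fold change (horizontal axis) of the 10 genes with its 95% interval in 4 comparisons, filled where the adjusted p is under 0.05. Filled points are Inhba, Bmp2, Fst and Id1 for TNF-a in PLKO cells and Inhba and Bmp2 for TNF-a in shTon cells, and there are 0 for knockdown.

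Across comparisons, 2 of the 10 genes were called for TNF-a in shTon cells (Inhba and Bmp2, both higher), where 3.28% of 12339 genes were. Knockdown called 0 of 10 in untreated cells, against 0.113% of all genes (14 of 12383), and 0 of 10 under TNF-a, against 0.254% (31 of 12213). With so few genes called, a count of 0 among 10 says little about these genes. At an unadjusted p under 0.05 limma gave 2108 and 2079 genes in these 2 comparisons. Of the 10 these held Bmp2, Bmpr1a, Id2 and Id3 in untreated cells, and Grem1, Bmp2, Bmpr2, Id2 and Fst under TNF-a. At an adjusted p under 0.05 edgeR called 0 of the 10 in untreated cells and DESeq2 called 1 (Bmp2). Both tools called 0 of the 10 under TNF-a. By value 9 of 10 were lower with knockdown in untreated cells (median -0.26), where 6068 of all 12383 genes were (median 0.01). Of the 9, Grem1, Bmp4 and Id1 were lower in set 3 only, and these and Bmpr2 turned positive without set 3 (0.0142 to 0.0634). The calls for TNF-a in PLKO cells depended on the fit: with all 12 libraries in it Inhba alone was called, and Bmp2, Fst and Id1 had adjusted p of 0.0671, 0.106 and 0.112. Without the mean-variance trend, or without the set as a block, 0 members were called (Inhba adjusted p = 0.0783 and 0.645).

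Other genes of the BMP system were taken from lists. For TNF-a in PLKO cells 1 of 54 described rose and 10 fell (20.4% called, median -0.20), against the 9.62% and -0.01 over all genes. Of 9 other ligand genes, Gdf15, a stress-induced relative of the family, rose from 168 ± 206 to 851 ± 558 normalised reads (SD, n = 3; log2 fold change 2.92, SE 0.31, adjusted p = 0.00540). Bmp3, which opposes bone formation, fell by 0.94 (SE 0.15, adjusted p = 0.0177). Of 11 other antagonists and modulators described, 3 fell. Bmper, a BMP-binding modulator gene, fell by 1.03 (SE 0.13, adjusted p = 0.0101), Crim1 by 0.59 (adjusted p = 0.0262) and the antagonist gene Nbl1 by 0.50 (adjusted p = 0.0321). Crim1 and Nbl1 each lost the call without set 2 (adjusted p = 0.0688 and 0.122) or set 3 (0.0680 and 0.0963).

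None of 10 other receptors was called in that comparison. Of 10 Smad and Smad ligase genes 0 rose and 2 fell. Smad6, an inhibitory Smad gene that BMP signalling itself induces, went from 112, 191 and 224 to 83.4, 80.04 and 84.95 normalised reads (-1.02, SE 0.22, adjusted p = 0.0373), so that every PLKO_TNF library lay below every PLKO_CTR library. It lost the call without set 2 (adjusted p = 0.113) or set 3 (0.0555). Smad3, which carries activin and TGF-beta signals, had -0.40 (adjusted p = 0.0482), and did not pass in edgeR (0.0517), in DESeq2 (0.0672) or with any 1 set left out (0.0768 to 0.226). Among 6 other BMP target genes 0 rose and 1 fell. That gene, the transcription factor gene Atoh8, was at 121, 172 and 217 in PLKO_CTR and 71.6, 35.2 and 78.6 in PLKO_TNF (-1.49, SE 0.28, adjusted p = 0.0269). In shTon cells it also fell (-1.39, SE 0.25, adjusted p = 0.0366, but 0.0811 without set 3). Other genes that BMP signalling is known to induce had values of either sign without passing, such as the inhibitory Smad gene Smad7 (0.41, adjusted p = 0.0667) and the homeobox gene Msx2 (1.13, adjusted p = 0.152), both higher in 3 of 3 sets. Msx2 was near the floor, at a mean of 5.84 normalised reads in PLKO_CTR and 15.0 in PLKO_TNF. It reached the filter of 10 only through its TNF-a libraries, so no conclusion is drawn from its rise. With all 12 libraries in the fit Atoh8, Bmp3, Crim1, Smad3 and Smad6 did not pass (adjusted p 0.0744 to 0.124).

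**Figure D4:**
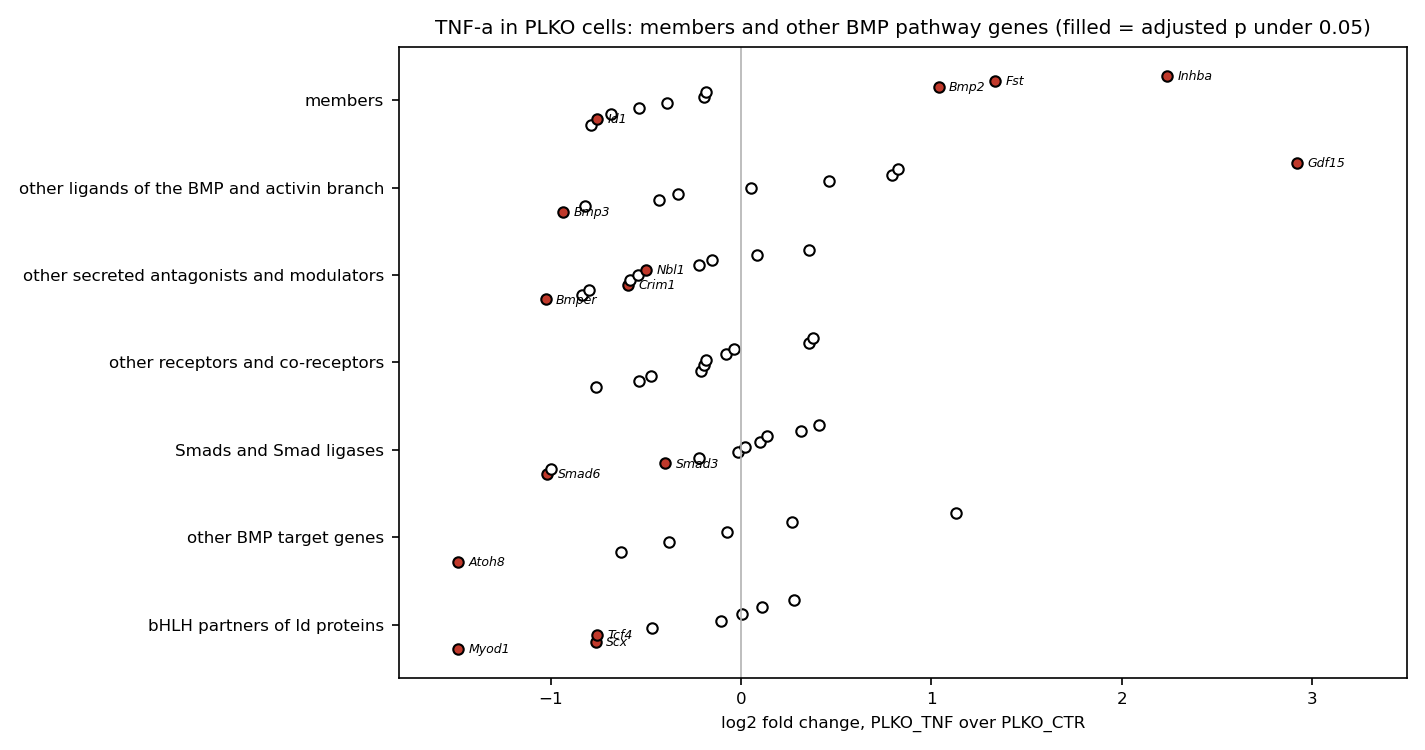
Log2 fold change with TNF-a in PLKO cells (horizontal axis) of the 10 members and of 54 other BMP pathway genes by list, each point a gene, filled and named where the adjusted p is under 0.05. The filled points are 4 to the right of 0 (Inhba, Bmp2, Fst and Gdf15) and 11 to the left.

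Id proteins hold back helix-loop-helix factors, and of 8 genes of such factors 0 rose and 3 fell with TNF-a in PLKO cells. These were the E-protein gene Tcf4 (-0.76, SE 0.13, adjusted p = 0.0201, but 0.0926 without set 2), the tendon factor gene Scx (-0.76, SE 0.12, adjusted p = 0.0157) and the muscle factor gene Myod1 (-1.49, SE 0.20, adjusted p = 0.0112). Myod1 is also 1 of the 10 muscle markers, of which 0 others passed, and in PLKO cells of set 3 it was at 6.24 and 1.27 normalised reads. It fell in shTon cells as well (-1.21, SE 0.22, adjusted p = 0.0370, but 0.152 without set 2). In the same PLKO comparison 3 of 6 nucleus pulposus markers, 1 of 2 cartilage markers and 1 of 6 fibroblast markers fell. Their part in the results for the BMP genes was not tested. For knockdown 0 of 53 other pathway genes were called in either condition. Over all genes 0.113% were called in untreated cells and 0.254% under TNF-a, so a count of 0 says little. For TNF-a in shTon cells 2 of 52 fell (3.85% called), near the 3.28% called over all genes.

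Genes with profiles like those of the 3 most variable members were found by the smallest root-mean-square difference of log2 profiles, centred within each set, over 12 libraries and 12310 genes. Among the 3 nearest to Inhba were Traf1 (0.38) and Tnfaip3 (0.41), and among the 3 nearest to Bmp2 were Plat (0.28) and Uap1 (0.34). The 3 nearest to Fst were Vcam1 (0.29), Serpine2 (0.36) and Tll1 (0.37). The SD of the centred profiles themselves was 1.42 for Inhba, 1.02 for Bmp2 and 0.98 for Fst on the same log2 scale, and 0.25 for Bmp4, the least variable of the 10.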

How the data were processed

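The authors deposited 3 tables of normalised signal per gene, each for 2 groups, with their own log2 fold changes and adjusted p-values, per the file headers. The submitters' processing notes name Novoalign 2.08.01, DESeq2 and the build rn5, with no role or order. The read counter, annotation and strandedness were not given in the sources used here. Reads shared by near-identical copies, or by genes that overlap on either strand, may therefore be split between them.

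In each library 100% of the deposited signal values were whole multiples of 1 step, within 0.001 read. The reads so recovered were joined over the 12899 shared genes and scaled with DESeq2 1.42.0 size factors to give the printed levels. No library was a copy of another in its group (chi-square over its degrees of freedom 72.4 to 166).

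Each comparison was fitted in limma 3.58.1 on log2(value + 1) with a mean-variance trend, for genes whose mean reached 10 normalised reads, with Benjamini-Hochberg adjustment at 0.05. The 3 deposited pairs used the deposited values, and TNF-a in shTon cells and the interaction used the joint scale. The set was a block, a choice taken from an earlier analysis of these data and rechecked here: a DESeq2 refit with it called 1341, 392 and 357 genes against 1339, 406 and 371 in the authors' deposited tables, and without it 141, 19 and 38. Deviations of libraries with the same set number correlated at 0.678 to 0.889 in 12 pairs, across genes. Other sets gave -0.741 to 0.180. Deviations were taken from the mean of the 3 libraries of a group and so sum to 0. This pushes the values for other sets down, and their low range is no separate support for the block. On data simulated for TNF-a in PLKO cells over 12373 genes, limma recovered 79 of 100 genes changed 2-fold (1 on the log2 scale). In the same run it recovered 95 of 98 genes changed by 2 on the log2 scale. It made 23 false calls in all, a larger share of its calls than the threshold of 0.05 names.

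Members, lists and tests were chosen with earlier results of these data known. All 10 members were named; of other pathway genes the rule named those that passed, at most 8 per direction by size. Nbl1 and Smad3, beyond that limit, and Smad7 and Msx2, which did not pass, were named after their values were seen. One gene of the pathway lists, left out of their counts, and some of the nearest profiles are not reported here. Alternatives were no block, other pseudocount, filter, trend, scaling and libraries, edgeR 4.0.16, DESeq2, and each set left out. Sequences came from RefSeq, matched by symbol. Every per-sample column had a sample.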

Additional observations from a re-analysis of the deposited data

How the results depend on the processing

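Without the replicate block the calls were 0 for TNF-a in PLKO cells, 0 and 0 for knockdown and 6 for TNF-a in shTon cells, with 0 members. Without the trend they were 55, 0, 0 and 143 (0 members in PLKO cells). With all 12 libraries 696, 3 and 444 genes passed (1 member for TNF-a in PLKO cells, 0 and 1 for knockdown), and DESeq2 passed 1348 genes with 7 members for TNF-a in PLKO cells, 403 and 363 for knockdown and 613 for TNF-a in shTon cells, with 1 member for knockdown in untreated cells. A pseudocount of 0.1 left 2 and 12 genes for knockdown. With a set left out, counts ranged from 545 to 1410.0, 12 to 283, 32 to 488 and 317 to 1105, and members called from 0 to 1 for each knockdown and 3 to 4 for TNF-a in shTon cells.

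Of 540 alternative values of the members 18 changed sign, all of values that had not passed. In edgeR the interaction of Bmp4 was 0.0121. With a set left out, knockdown in untreated cells ranged from -0.0472 to 0.0313 for Grem1, -0.19 to 0.0634 for Bmp4, -0.36 to 0.0311 for Bmpr2, -0.31 to 0.0363 for Id1 and -0.12 to 0.41 for Inhba. Knockdown of Bmp4 under TNF-a ranged from -0.40 to 0.10. TNF-a in shTon cells ranged from -0.45 to 0.10 for Bmpr2, -0.58 to 0.18 for Id1 and -0.29 to 0.14 for Id3, and the interaction from -0.23 to 0.17 for Bmp4, -0.18 to 0.0243 for Id2 and -0.45 to 0.00915 for Fst. The causes were not tested. The other 522 values kept their direction, and 490 of the 540 also kept their side of the threshold. Read depth was lowest in shTon_TNF of set 3 (7160042 reads).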
